A study of Homo sapiens with 9 samples.

Results

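The regions described here are RNA polymerase II (RNAPII) peaks that were called in cells depleted of RECQL5 and in cells without induced RECQL5, but neither in cells with a control construct nor in cells overexpressing RECQL5. A member is a peak of the shRNA7 list that at least 1 bp of an shRNA5 peak and of a Doxy0.0 peak overlapped, and that no shCTRL peak and no Doxy1.0 peak overlapped. Of the 32124 peaks of the shRNA7 list, 1877 met this rule (5.84%). The members were therefore selected on peak calls in all 5 lists, and their pattern of presence and absence is a description that no test supports. RNAPII was profiled by chromatin immunoprecipitation and sequencing (ChIP-seq) in HEK293, an established line from human embryonic kidney, to ask how the polymerase is distributed when the level of RECQL5 changes. HEK293 cells had been infected with lentivirus carrying a control construct (shCTRL) or 1 of 2 hairpins against RECQL5 (shRNA5 and shRNA7). The control is labelled as an shRNA and described in the methods as an empty vector. The other RNAPII libraries came from HEK293 T-REx cells stably transfected with a plasmid for full-length RECQL5 under a doxycycline-inducible promoter, and grown at 0.0 or 1.0 ng/ml doxycycline (Doxy0.0 and Doxy1.0). Both doxycycline groups carried that plasmid, so the drug itself and the RECQL5 it induced cannot be told apart, and whether the cells were a pool or a single clone was not given in the sources used here. No group of the doxycycline arm was depleted of RECQL5, and the hairpin arm and the doxycycline arm used different cells. Each group was 1 library, and no difference given here was checked in a replicate.

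RNAPII initiates at promoters, pauses shortly downstream of many transcription start sites (TSSs), and then elongates through the gene body to beyond the polyadenylation site. RECQL5 is a member of the RecQ family of DNA helicases that binds RNAPII directly and acts on transcript elongation. ChIP-seq peaks mark where polymerase is dense enough to stand out from the background, at paused as well as at elongating polymerase.

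To show what kind of sequence lay under these peaks, 201 bases centred on the shRNA7 summit are given, all on the plus strand of GRCh37. They come from the strongest members at promoters, in introns and outside genes whose 201 bases touch no annotated untranslated region. The whole member can still reach such a region. Strength was the lowest of the 3 significance scores of a member (−10 × log10 of the p-value), in shRNA7, in shRNA5 and in Doxy0.0. Capitals mark matches, on either strand, to GGGCGG (GC box), CCAAT (bound by NF-Y), TATAAA (bound by the TATA-binding protein), CACGTG (E-box), CCGGAAG (ETS), AATAAA (polyadenylation signal) or 8 thymines in a row. Both matches in the ANXA5 window are to AATAAA on the minus strand and overlap each other. The sequences come from the GRCh37 reference, and a match is a string of letters and no evidence of a bound factor.
HMGN4 promoter-proximal member, chr6:26537016-26537216: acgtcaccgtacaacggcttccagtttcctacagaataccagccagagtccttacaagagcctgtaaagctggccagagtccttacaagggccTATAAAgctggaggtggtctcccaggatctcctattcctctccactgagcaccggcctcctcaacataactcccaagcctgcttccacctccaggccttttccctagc
TMEM200C promoter-proximal member, chr18:5895990-5896190: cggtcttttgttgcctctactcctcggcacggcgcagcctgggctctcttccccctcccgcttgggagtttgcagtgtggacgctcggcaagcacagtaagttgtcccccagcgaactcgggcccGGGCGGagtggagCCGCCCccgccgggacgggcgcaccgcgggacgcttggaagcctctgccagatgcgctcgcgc
ANXA5 intronic member, chr4:122614919-122615119: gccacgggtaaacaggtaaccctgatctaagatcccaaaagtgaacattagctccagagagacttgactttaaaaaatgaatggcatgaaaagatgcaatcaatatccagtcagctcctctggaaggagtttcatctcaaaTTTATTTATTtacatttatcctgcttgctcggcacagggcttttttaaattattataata
SMG5 intronic member, chr1:156244976-156245176: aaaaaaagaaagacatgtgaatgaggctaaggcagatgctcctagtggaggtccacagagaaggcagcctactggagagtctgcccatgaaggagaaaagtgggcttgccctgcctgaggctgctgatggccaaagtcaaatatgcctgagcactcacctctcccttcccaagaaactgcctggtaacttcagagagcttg
Member beyond the end of UBALD1, chr16:4656414-4656614: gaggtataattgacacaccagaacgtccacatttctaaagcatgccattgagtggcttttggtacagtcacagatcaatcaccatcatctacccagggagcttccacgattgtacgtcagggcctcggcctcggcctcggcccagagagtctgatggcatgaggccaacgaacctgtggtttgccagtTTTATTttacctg
The TMEM200C window, centred 135 bp from the nearest annotated coding TSS, held 22 CpG dinucleotides, 2 GC boxes and an AT content of 30.3%. By contrast, the HMGN4 window lay 1477 bp from the nearest coding TSS, with 4 CpGs and an AT content of 45.8%. The ANXA5 intron window was AT rich (63.2%) with 2 CpGs, and the SMG5 intron window held no CpG and none of the strings at an AT content of 48.8%. Beyond the end of UBALD1 the AT content was 49.3%, with 7 CpGs.

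The lists from which the members were drawn differed in length and in tags per peak. They held 5287 peaks for shCTRL, 23698 for shRNA5, 32124 for shRNA7, 47060 for Doxy0.0 and 33900 for Doxy1.0. The weakest called peak held 35, 27 and 26 tags (sequenced reads) in the shCTRL, shRNA5 and shRNA7 lists, against 9 in Doxy0.0 and 11 in Doxy1.0, and tags were not normalised between libraries. A region without a called peak has no listed value, so absence means only that no peak was called there. The lists of the hairpin arm were shorter than the methods describe, most of all for shCTRL, and what set them apart was not given in the sources used here. Absence from shCTRL, and with it membership, therefore rests on the shorter list of 5287 peaks.

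The first question was how often a peak called with both hairpins and not in shCTRL followed this pattern in the doxycycline arm. Most shRNA7 peaks (88.3%) had no shCTRL peak, and 12986 of them were also found upon shRNA5 (40.4% of the shRNA7 list), here called hairpin-gained peaks. The name describes calls in the hairpin arm only, since 8010 of these peaks had a Doxy0.0 peak, in cells not depleted of RECQL5. At every member the calls in shCTRL and in Doxy0.0 thus differed by rule, although neither group was depleted. Of the hairpin-gained peaks, 6133 were in both doxycycline lists, 4036 in neither, 1877 in Doxy0.0 alone (the members) and 940 in Doxy1.0 alone, the mirror image of the members (mirror peaks). Members thus outnumbered mirror peaks 2.0 to 1 (interval 1.85 to 2.16, counting error only). An excess of Doxy0.0 was also found in shRNA7 peaks with another hairpin pattern. Among the 15392 shRNA7 peaks with neither an shRNA5 nor an shCTRL peak, 2199 were in Doxy0.0 alone and 1002 in Doxy1.0 alone, a ratio of 2.19 (2.04 to 2.36). Among the 3702 shRNA7 peaks present in both shRNA5 and shCTRL, these numbers were 131 and 36, a ratio of 3.64 (2.52 to 5.25). Over the shRNA7 list 13.1% of peaks were in Doxy0.0 alone, close to the 14.5% of hairpin-gained peaks that were members. Over the whole Doxy0.0 list 54.4% of peaks had no Doxy1.0 peak, whereas 38.2% of the Doxy1.0 list had no Doxy0.0 peak.

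**Figure D1:**
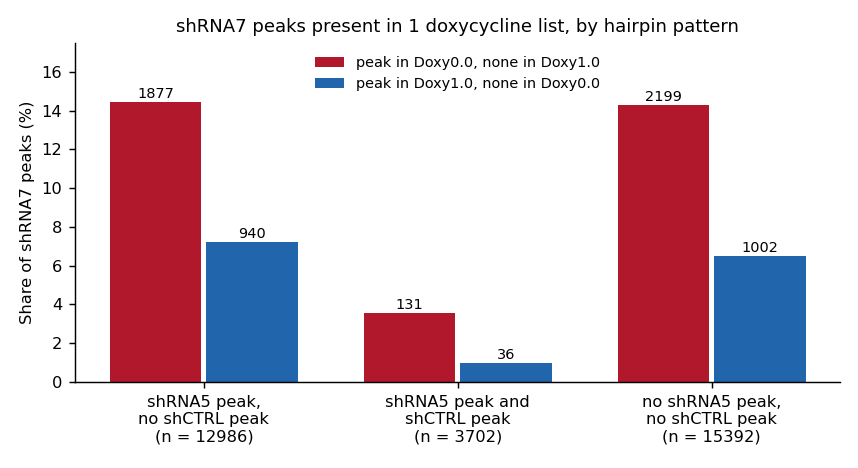
Share of shRNA7 peaks (y axis, percent) that were overlapped in 1 doxycycline list and not in the other, for 3 hairpin patterns (x axis); bars are single-library shares with the number of peaks above them. The leftmost red bar holds the 1877 members and the leftmost blue bar the 940 mirror peaks, and the excess of Doxy0.0 over Doxy1.0 stands in all 3 patterns (44 shRNA7 peaks with an shCTRL and no shRNA5 peak are not drawn).

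The excess moved with the length of the lists. When the Doxy0.0 list was shortened to the 33900 highest-scoring peaks, the length of the Doxy1.0 list, 1374 members stood against 1312 mirror peaks, a ratio of 1.05 (0.971 to 1.13). When all lists were cut to the shortest of their arm, 90 members stood against 95 mirror peaks, a ratio of 0.947 (0.711 to 1.26). This ratio was below 1, but its interval held 1, so neither set was in excess beyond counting error. The number of members is therefore read below as a description of these lists, and the sections that follow ask what the members were and where they lay.

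In shRNA7 members were stronger than most peaks of the list, whereas in Doxy0.0 they were close to the typical peak of that list. In shRNA7 their significance scores ran from 50.2 to 1923 with a median of 182, against a median of 126 for the whole list and 236 for hairpin-gained peaks present in both doxycycline lists. The strongest overlapping shRNA5 peak had a median score of 100.5. In Doxy0.0 the median was 73.1, against 77.0 for that whole list. A Doxy0.0 counterpart with a score below 100 was found for 70.4% of members (68.3 to 72.4), compared with 61.9% of the Doxy0.0 list, 33.7% (33.0 to 34.5) of all shRNA7 peaks with a Doxy0.0 counterpart and 21.6% (20.6 to 22.6) of hairpin-gained peaks in both doxycycline lists. For mirror peaks 76.5% (73.7 to 79.1) had a Doxy1.0 counterpart with a score below 100, as had 56.7% of the Doxy1.0 list. A member held a median of 145 tags in shRNA7 and 80.0 in shRNA5, and its Doxy0.0 counterpart held 13, where the median of the Doxy0.0 list was 14. For 505 members (26.9%) that counterpart had fewer tags than the 11 of the weakest Doxy1.0 peak, whereas this was so for 12.2% of all shRNA7 peaks with a Doxy0.0 counterpart and 6.02% of the hairpin-gained peaks in both lists. Fold enrichment over background had medians of 7.66 in shRNA7, 6.91 in shRNA5 and 13 in Doxy0.0, and is not compared between the arms because their IgG backgrounds differed. All these values belong to the calls that chose the members and are given as a description.

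**Figure D2:**
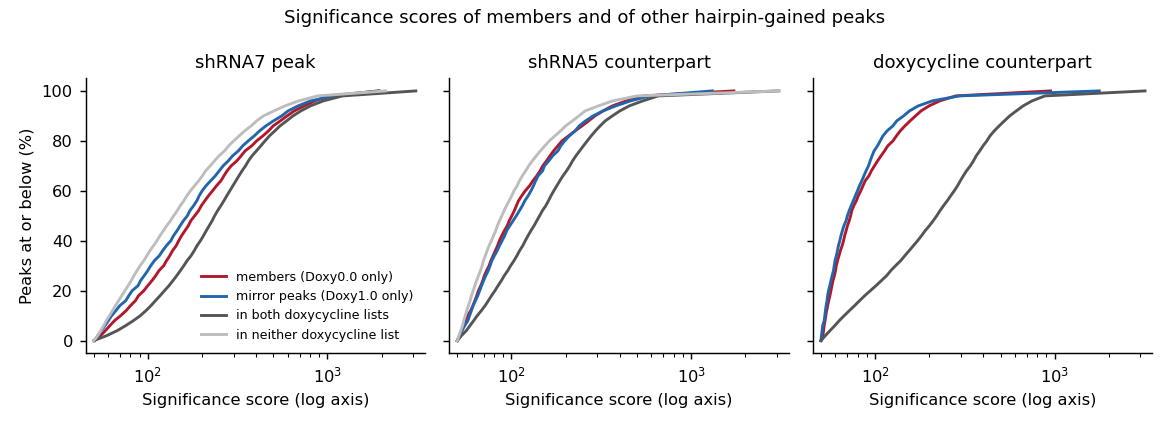
Cumulative distributions of significance scores (x axis, log scale) over peaks (y axis, percent at or below the score) in the shRNA7 list, for the strongest shRNA5 counterpart, and for the strongest doxycycline counterpart (Doxy1.0 for mirror peaks, Doxy0.0 otherwise). In the right panel members (red) and mirror peaks (blue) lie together near the lowest score of 50, to the left of peaks in both doxycycline lists (grey).

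Peaks of the hairpin arm were broader than those of the doxycycline arm, and a member was typically a broad region with 1 narrow Doxy0.0 peak inside. The median member was 2905 bp long in shRNA7 (717 to 20225 bp) and 1781 bp in its shRNA5 counterpart, while the Doxy0.0 counterpart was 606 bp long. Over the whole shRNA7, shRNA5 and Doxy0.0 lists the median lengths were 2024, 1834 and 622 bp. More than 1 Doxy0.0 peak overlapped 24.0% of members, compared with 32.4% of hairpin-gained peaks in both doxycycline lists. More than 1 shRNA5 peak overlapped 18.1% of members, 18.5% of peaks in both lists, 16.6% of mirror peaks and 11.4% of those in neither list. The shRNA7 summit was a median of 412 bp from the shRNA5 summit and 523 bp from the Doxy0.0 summit, against 147 and 149 bp for hairpin-gained peaks in both doxycycline lists. In 166 members (8.84%) the Doxy0.0 summit lay outside the member, which the Doxy0.0 peak only reached with its flank. The 1877 members had 1849 different shRNA5 counterparts and 1866 different Doxy0.0 counterparts, so a few neighbouring members shared 1 broad peak.

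How far from a member the absent peaks were was examined next. The nearest Doxy1.0 peak was a median of 7038 bp away and lay within 1000 bp of 239 members (12.7%) and within 5000 bp of 43.1%. Among the shRNA7 peaks that no Doxy1.0 peak overlapped, this median was 9937 bp, and for hairpin-gained peaks in neither doxycycline list it was 8552 bp. The nearest Doxy0.0 peak was a median of 2934 bp from the mirror peaks, against 6253 bp for shRNA7 peaks that no Doxy0.0 peak overlapped and 5980 bp for hairpin-gained peaks in neither list. The longer Doxy0.0 list thus lay closer in each of these sets. For shCTRL the median distance of members was 70857 bp, with 34 members (1.81%) within 1000 bp. This median was 42126 bp for mirror peaks, 75623 bp for hairpin-gained peaks in both doxycycline lists and 81740 bp for those in neither. Of these sets 2.02%, 1.66% and 1.88% were within 1000 bp, close to the share of members. In 32 members (1.70%) all Doxy0.0 counterparts also reached a Doxy1.0 peak outside the member, or all shRNA5 counterparts an shCTRL peak. The 2 members closest to losing their place were at LRRN4CL and BSCL2 on chromosome 11, 4 bp from a Doxy1.0 peak, and in TIMM17A, 7 bp from one. They held 200 and 171 tags in shRNA7, 114 and 69 in shRNA5, and 9 and 18 in Doxy0.0. On the other side, a peak at the HOXA3 promoter on chromosome 7 was kept out by 15 bp of overlap, and an exonic peak on chromosome 1 by 18 bp. The HOXA3 peak held 153 tags in shRNA7 and 38 in shRNA5, and a Doxy0.0 peak of 779 tags overlapped it.

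Position relative to genes was not used in choosing the members. A peak was called promoter-proximal where it touched the 500 bp on either side of the TSS of a protein-coding transcript, and gene-body where it touched the rest of such a transcript. By this measure 550 members were promoter-proximal (29.3%, interval 27.3 to 31.4), 1078 were gene-body peaks (57.4%, 55.2 to 59.7) and 249 touched no protein-coding transcript (13.3%, 11.8 to 14.9). The TSS could be an alternative one inside a gene. Promoter-proximal members with a summit in a protein-coding gene lay at a median of 7.78% of its length (upper quartile 52.1%). This median was 29.0% for mirror peaks and 2.12% over the shRNA7 list. Members lay between the other hairpin-gained classes. Promoter-proximal peaks made up 65.2% (64.0 to 66.4) of those in both doxycycline lists, 11.9% (10 to 14.1) of mirror peaks and 6.91% (6.17 to 7.74) of those in neither list. The share of members was slightly below the 32.0% of the whole shRNA7 list. The difference between members and mirror peaks was 17.4 percentage points. It was 21.3 points with doxycycline lists of equal length and had the same sign in the 12 alternatives computed for it, from 10.5 to 37.5 points. These alternatives reused the same libraries, and the one with fold enrichments of at least 10 held only 13 mirror peaks. The difference is not given for other hairpin patterns, so whether it is general to the doxycycline lists was not tested. The share of members itself moved with the strength asked of the peaks and was 56.3% (52.9 to 59.6) of the 851 members found with scores of at least 100 in all lists.

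By the place of the summit, 163 members were exonic gene-body peaks (8.68%) and 764 intronic (40.7%). The remaining 400 had a summit outside every protein-coding gene (21.3%), among them 151 whose flank reached a gene body. Of all members, 264 (14.1%, 12.6 to 15.7) had such an outside summit within 10 kb beyond the end of a protein-coding gene. Another 69 touched a lncRNA gene, and 55 (2.93%) were far from any of these. Such downstream peaks made up 18.5% (17.3 to 19.7) of hairpin-gained peaks in neither doxycycline list and 5.79% (5.23 to 6.40) of those in both. The interval of mirror peaks (10.1 to 14.3) overlapped that of members, and the share over the shRNA7 list was 10% (9.68 to 10.3). Far from genes lay 1.70% of mirror peaks, 2.68% of peaks in neither list, 1.53% of those in both and 2.47% of the shRNA7 list. Among gene-body members with a summit in the gene, 17.6% of summits lay in exons (15.3 to 20.2), compared with 12.5% (10.2 to 15.2) of mirror peaks and 13.6% of all such shRNA7 peaks. The share was 14.2% (12.5 to 16.1) of hairpin-gained peaks in both doxycycline lists and 15.8% (14.5 to 17.2) of those in neither, and these intervals overlapped that of members.

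**Figure D3:**
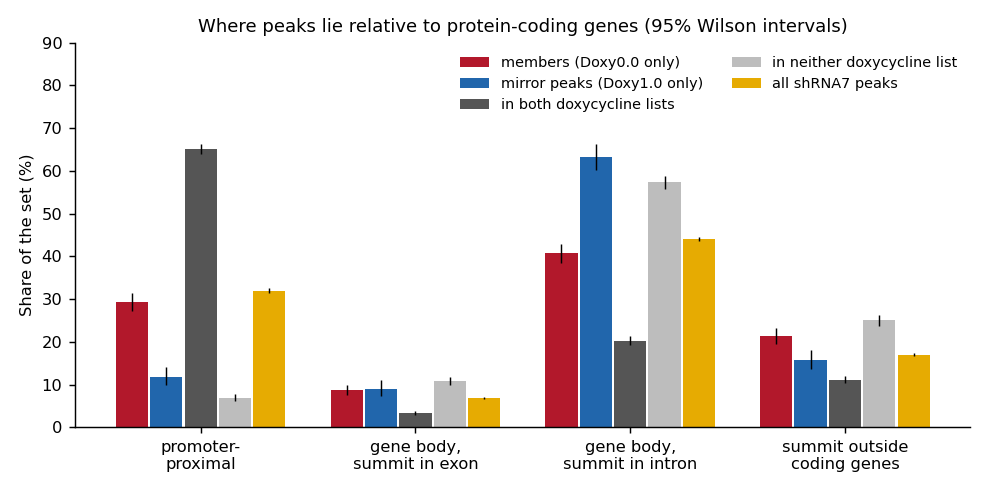
Share of each set (y axis, percent) whose peaks were promoter-proximal, or otherwise had their summit in an exon, in an intron or outside protein-coding genes (x axis), with 95% Wilson intervals. Members (red) stand at 29.3% at promoters, above mirror peaks (blue, 11.9%) and below peaks in both doxycycline lists (dark grey, 65.2%).

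The summit of promoter-proximal members was often away from the TSS. In 371 of the 550 (67.5%, 63.4 to 71.2) the shRNA7 summit was within 500 bp of a coding TSS, compared with 88.4% (87.3 to 89.3) of promoter-proximal peaks in both doxycycline lists and 81.5% over the shRNA7 list. It was less often so near for those in neither list (41.9%, 36.3 to 47.8), while the interval of mirror peaks (61.6%, 52.4 to 70.1) overlapped that of members. In Doxy0.0 the summit was within 500 bp of a TSS for 70.2% of them, compared with 90.7%. The strongest promoter-proximal member (chr6:89853890-89863514) covered the start of PM20D2, which encodes a peptidase of the M20 family. It had 570 tags in shRNA7, 332 in shRNA5 and 71 in Doxy0.0, with no shCTRL peak within 56831 bp and the nearest Doxy1.0 peak 8060 bp away. A broad member of 11381 bp (chr4:124317331-124328711) covered SPRY1, an inhibitor of receptor tyrosine kinase signalling, with 698 tags in shRNA7, 127 in shRNA5 and 45 in Doxy0.0. At SPRY1 no peak of the shCTRL or Doxy1.0 list touched the gene. HMGN4, a nucleosome-binding protein of the high mobility group, had a member of 262, 175 and 70 tags in these lists (chr6:26536516-26539812). SLK, a Ste20-like kinase, had one of 136, 192 and 30 tags (chr10:105726011-105728118). The fifth strongest (chr18:5885574-5898110) reached 12537 bp around the start of TMEM200C with 720, 228 and 36 tags. In all 5 the nearest Doxy1.0 peak was at least 8060 bp away.

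The strongest exonic member (chr19:1571081-1580246) lay near the end of MBD3, a subunit of the NuRD chromatin remodelling complex, with 664 tags in shRNA7, 236 in shRNA5 and 39 in Doxy0.0. The lists in which this peak was absent had other peaks in MBD3, 2 in shCTRL and 3 in Doxy1.0, and the nearest Doxy1.0 peak was 1836 bp away. At the end of PTPN9, a protein tyrosine phosphatase, the member (chr15:75751537-75760227) held 522, 178 and 22 tags. PSG1 encodes a pregnancy-specific glycoprotein of a family of near-identical genes, between which short reads cannot always be told apart. Its member (chr19:43369805-43371236) held 157, 97 and 30 tags, and no shCTRL or Doxy1.0 peak touched the gene. PAPOLA, the canonical poly(A) polymerase, had an exonic member at 50.1% of its length (chr14:96998773-97009950) with 698, 477 and 24 tags. Exonic summits as a group lay late in genes, at a median of 91.1% of the gene's length (88.9 to 94.1), as they did among all shRNA7 peaks (91.3%).

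The top-ranked intronic member (chr4:122614168-122617300) was in ANXA5, which encodes a phospholipid-binding annexin, with 130 tags in shRNA7, 196 in shRNA5 and 86 in Doxy0.0. The Doxy0.0 summit, however, lay outside the member and 32 bp from a coding TSS, its peak also reached a Doxy1.0 peak, and the nearest shCTRL and Doxy1.0 peaks were 219 and 293 bp from the member. In SMG5, a factor of nonsense-mediated mRNA decay, the member (chr1:156243089-156246206) held 155, 122 and 39 tags, in a gene with 22 Doxy0.0 and 14 Doxy1.0 peaks. PLCXD1 lies in the pseudoautosomal region, whose sequence is on both sex chromosomes, and its member is listed on chromosome Y (154, 140 and 39 tags). LONRF2, which encodes a RING finger protein, had a member of 163, 153 and 35 tags (chr2:100906768-100909190) and 1 Doxy1.0 peak, 28488 bp away. BMF, a pro-apoptotic member of the BCL2 family, had one of 104, 95 and 62 tags (chr15:40389951-40391900) and no shCTRL or Doxy1.0 peak. These 5 thus ranged from a region beside a promoter peak of both doxycycline lists to genes with no Doxy1.0 peak at all.

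Outside protein-coding genes, the strongest member (chr16:4654564-4659192) had its summit 2370 bp beyond the end of UBALD1, with 314 tags in shRNA7, 200 in shRNA5 and 45 in Doxy0.0. Next came a member at PSG11-AS1, a lncRNA of the same glycoprotein gene cluster (chr19:43536093-43537758), with 220, 139 and 48 tags. Beyond the end of ZAN by 1711 bp, and reaching EPHB4, a receptor tyrosine kinase of the ephrin family, the member (chr7:100395485-100401010) held 471, 132 and 38 tags. At 404 bp beyond MRPL4, a protein of the mitochondrial ribosome, the member held 212, 124 and 43 tags (chr19:10369206-10372201). The last of the 5 had its summit 323 bp beyond the end of ZFP36L1, an RNA-binding protein that promotes mRNA decay, with 325, 140 and 29 tags (chr14:69252720-69256509). In 4 of these 5 the summit was thus just beyond the end of a protein-coding gene.

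Base composition was another measure that the rule did not use. Over 2 kb centred on the shRNA7 summit, members had a median AT content of 54.2% (53.6 to 54.7), lower than mirror peaks at 59.7% (59.0 to 60.1) and hairpin-gained peaks in neither doxycycline list at 60.5% (60.3 to 60.8), and higher than those in both at 46.9% (46.6 to 47.2). Since promoters are GC rich, the comparison was also made within each place. At promoters the median was 45.6% for members (44.5 to 46.6) against 54.0% for mirror peaks (51.1 to 56.4). In introns it was 58.1% (57.7 to 58.7) against 60.6% (60.4 to 61.2). In exons it was 55.5% (53.9 to 57.8) against 60.3% (57.5 to 62.0), where the intervals overlapped. Outside genes it was 54.0% (53.3 to 54.9) against 56.4% (54.6 to 57.8), where they overlapped as well. Intronic members did not differ in this measure from intronic peaks in both doxycycline lists (58.2%, 57.7 to 58.6) beyond their intervals. The difference between members and mirror peaks over all places was -5.45 percentage points and -6.70 with doxycycline lists of equal length, and it kept its sign in the 12 alternatives computed for it. These alternatives also reused the same libraries, and whether the difference holds for other hairpin patterns was not tested.

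**Figure D4:**
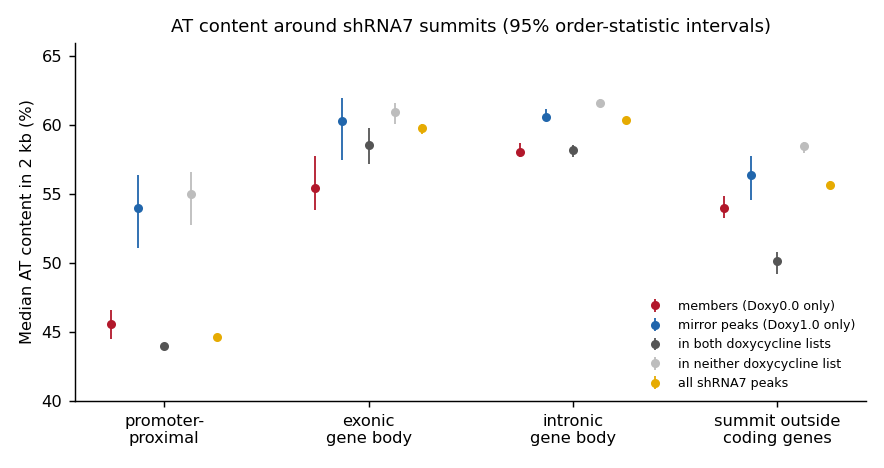
Median AT content in 2 kb around the shRNA7 summit (y axis, percent) by place of the peak (x axis) for members and 4 comparison sets, with 95% order-statistic intervals. Members (red) lie below mirror peaks (blue) in all 4 places, with intervals that do not overlap at promoters and in introns.

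In CpG dinucleotides and the GC box, promoter-proximal members also lay between mirror peaks and peaks in both doxycycline lists. The ratio of observed to expected CpG at promoters was 0.614 (0.588 to 0.632) for members, 0.327 (0.295 to 0.414) for mirror peaks and 0.701 (0.696 to 0.706) for peaks in both doxycycline lists. GGGCGG, the GC box present in the TMEM200C window, was in the 201 bases around 32.7% of promoter-proximal member summits (28.9 to 36.8), compared with 17.0% (11.1 to 25) of mirror peaks, 46.1% (44.6 to 47.7) of peaks in both lists and 41.1% (40.2 to 42.1) of all promoter-proximal shRNA7 peaks (15.7% of shRNA7 peaks of any place). For CCGGAAG, the core of ETS factor sites, this was not so, since it was near 6.0% of promoter-proximal members (4.30 to 8.31), 6.25% (3.06 to 12.3) of mirror peaks, 11.6% (10.6 to 12.6) of peaks in both lists and 9.93% over the shRNA7 list (3.74% at any place). CACGTG was near 2.82% of members (2.17 to 3.67) and 2.89% of the shRNA7 list. TATAAA was near 14.4% of members (12.9 to 16.1), 22.1% (19.6 to 24.9) of mirror peaks and 16% of the shRNA7 list, and CCAAT near 22.9% (21.1 to 24.9), 26.2% (23.5 to 29.1) and 23.5%. AATAAA was near 21.7% of members (19.9 to 23.6), compared with 31.4% (28.5 to 34.4) of mirror peaks and 23.8% of the shRNA7 list. Of intronic members 29.8% held AATAAA (26.7 to 33.2) against 35.0% (31.2 to 38.9) of intronic mirror peaks, so within introns the intervals overlapped. A run of 8 thymines was near 13.3% of members (11.9 to 14.9), 13.5% (11.5 to 15.8) of mirror peaks and 10.9% of the shRNA7 list. How far these shares follow from AT content alone was not tested.

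Within genes, members lay along the whole transcribed region. The summits of the 927 exonic and intronic gene-body members had a median position of 52.3% of the gene's length (48.0 to 55.7), compared with 54.3% (51.0 to 57.5) for mirror peaks. When genes were divided into 10 equal bins, the bin at the 3′ end held most of them, 146 summits (15.7%, 13.5 to 18.2), and bin 6 held fewest, 68 (7.34%, 5.83 to 9.20). That share was the general one, since the same bin held 14.6% over the shRNA7 list, 15.5% of peaks in both doxycycline lists, 15.4% of those in neither and 13.2% (10.9 to 16) of mirror peaks. Host genes of gene-body members were shorter, with a median of 61.0 kb (54.6 to 64.1) against 75 kb (70.9 to 82.0) for mirror peaks and 83.3 kb (80.2 to 86.7) for hairpin-gained peaks in neither list. They did not differ from those of peaks in both lists (60.4 kb, 55.5 to 64.7) beyond the intervals.

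Whether the gene as a whole lacked peaks in the Doxy1.0 list was then asked. For 830 of the 927 gene-body members (89.5%, 87.4 to 91.3) the gene had a Doxy1.0 peak elsewhere, and for 686 (74.0%, 71.1 to 76.7) it had one at its start. Only 97 of these gene-body members (10.5%, 8.65 to 12.6) were in genes without any Doxy1.0 peak. This compared with 9.29% (8.26 to 10.4) of gene-body hairpin-gained peaks in neither doxycycline list, which likewise have no Doxy1.0 peak of their own. Counted by gene, with promoter-proximal members included, 303 of the 1179 protein-coding genes that held a member summit had no Doxy1.0 peak. A count by gene for the other sets is not given here. In shCTRL the picture differed, since 53.6% of gene-body members (50.4 to 56.8) were in genes with no shCTRL peak at all, as were 53.4% of such peaks over the shRNA7 list. Over all shRNA7 gene-body peaks a Doxy1.0 peak was found elsewhere in the gene for 91.2%, near the 89.5% of members, and an shCTRL peak for 45.3%, near the 46.4% (43.2 to 49.6) of members. For mirror peaks an shCTRL peak was found elsewhere in 59.9% (56.1 to 63.5).

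Members were spread over many genes. In all, 1179 protein-coding genes held 1361 member summits, and 1030 of these genes held a single one. A member lay within 20 kb of another member in 18.8% of cases.

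SLIT2 had the most members. It encodes a secreted ligand for ROBO receptors in axon guidance and spans 369 kb of chromosome 4 (20253528 to 20622184, plus strand). It held 41 peaks in shRNA7, 51 in shRNA5, 2 in shCTRL, 26 in Doxy0.0 and 4 in Doxy1.0. Its 8 members were all intronic, from 26.7 to 258 kb after the gene's start. They lay in 3 groups, a pair at 26.7 and 33.6 kb, 4 members between 107 and 129 kb, and a pair at 251 and 258 kb. Their shRNA7 tags ran from 54 to 370, whereas their Doxy0.0 counterparts held 10 to 16 tags each. Both members of the first pair overlapped 1 broad shRNA5 peak of 789 tags. All 4 Doxy1.0 peaks of SLIT2 lay before the first member, and the nearest Doxy1.0 peaks to the last pair were 194859 and 189651 bp away.

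TLE1, a Groucho-type transcriptional corepressor on the minus strand of chromosome 9 (84198598 to 84304462), had 5 members. It held 7 peaks in shRNA7, 9 in shRNA5, none in shCTRL, 20 in Doxy0.0 and 5 in Doxy1.0. Of its members, 4 followed one another from 4.50 to 14.1 kb after the start, the longest of them 9493 bp with 592 tags in shRNA7, 284 in shRNA5 and 15 in Doxy0.0. A Doxy1.0 peak was 31 bp from one of them and 602 bp from another, so these were close to the limit of the rule. KIF20B, a kinesin of cytokinesis, and SMC5, a subunit of the SMC5/6 complex of genome maintenance, had 4 members each, all intronic. KIF20B had 8 peaks in each doxycycline list, although 4 of its shRNA7 peaks were members, and SMC5 had 11 in Doxy0.0 and 5 in Doxy1.0. The KIF20B members at 13.6 and 15.5 kb after the start shared 1 shRNA5 counterpart (83 tags) and 1 Doxy0.0 counterpart (23 tags). A Doxy1.0 peak was 495 bp from another KIF20B member and 62 bp from an SMC5 member. COMMD3-BMI1, an annotated read-through of COMMD3 and the Polycomb gene BMI1, was one of 20 genes with 3 members, named because it is the shortest of them. Its members adjoined one another, with 277, 135 and 51 tags in shRNA7 and 46, 17 and 12 in Doxy0.0.

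**Figure D5:**
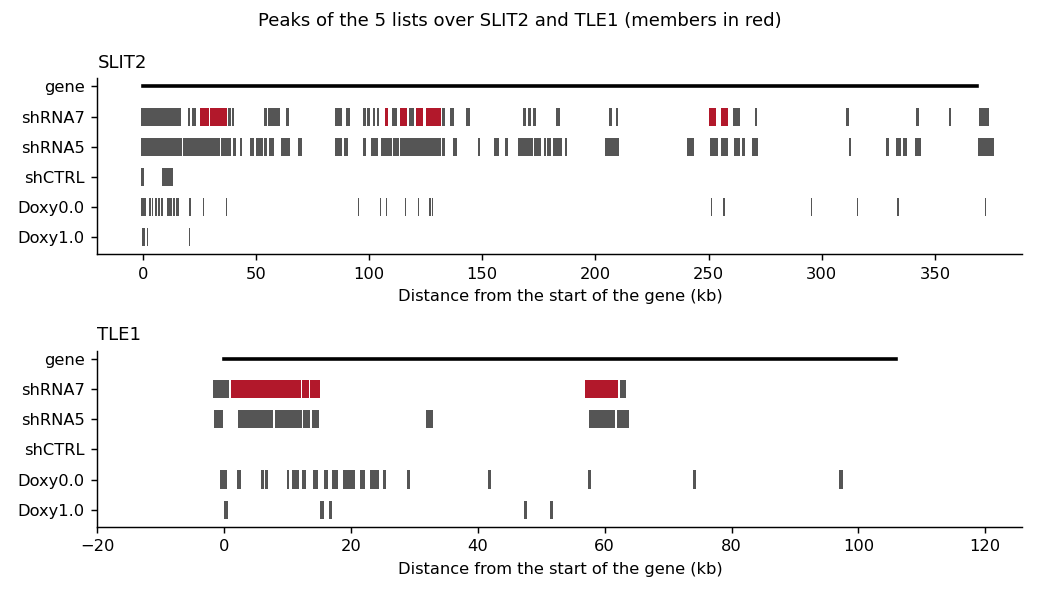
Peaks of the 5 lists (rows) over SLIT2 and TLE1, plotted as distance from the start of the gene in kb, with the gene as a black line and members in red. Over SLIT2 the 8 members lie in 3 groups where the Doxy1.0 row is empty, and over TLE1 4 of the 5 members lie close to the start with Doxy1.0 peaks just beside them.

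Lists of genes by function gave no share that stood clear of the background. Of the 7871 protein-coding genes touched by a hairpin-gained peak, 1787 were touched by a member (22.7%, 21.8 to 23.6). Among 26 such genes of RNAPII elongation and pause control the number was 6 (23.1%, 11 to 42.1). In NELFB, a subunit of the negative elongation factor, the member held 229 tags in shRNA7, 78 in shRNA5 and 46 in Doxy0.0. In SUPT6H, a histone chaperone that travels with RNAPII, it held 205, 76 and 16 tags. SSRP1, a subunit of the FACT histone chaperone, had a member of 227, 109 and 13 tags. None of these 3 genes lacked Doxy1.0 peaks, which numbered from 2 in SSRP1 to 16 in SUPT6H.

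The other lists gave similar shares. Of 30 DNA repair and genome stability genes 6 were touched by a member (20%, 9.51 to 37.3). Splicing factors gave 3 of 18 (16.7%, 5.84 to 39.2), with members in introns of EFTUD2, SNRPD3 and SNRNP200, proteins of the spliceosome, whose Doxy0.0 counterparts held 11, 11 and 18 tags. Chromatin modifiers and remodellers gave 11 of 41 (26.8%, 15.7 to 41.9). There the strongest had its summit near the end of KMT2A, a histone methyltransferase, reached the promoters of TMEM25 and TTC36, and held 458, 145 and 19 tags. The start of KMT2C, a related enzyme whose gene has near-identical copies in the genome, had a member of 80, 62 and 33 tags. CHD9, a chromatin remodeller, and KDM6A, a histone demethylase, had members of 152 and 205 tags in shRNA7. Signalling kinases and adaptors gave 11 of 36 (30.6%, 18.0 to 46.9). The start of PIK3CB, a catalytic subunit of phosphoinositide 3-kinase, had a member of 104, 60 and 32 tags. Nuclear pore and import genes gave 9 of 31 (29.0%, 16.1 to 46.6), with members at the start of the exportin gene XPO7 and in introns of the nucleoporin genes TPR, NUP214 and RANBP2. All 6 intervals held the 22.7% of all genes.

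Among RECQL5 and the genes that the study's main text names for transcript elongation, OPA1 alone had a member. Genes that the study shows only in its figures were not looked up. RECQL5 itself, the gene depleted or overexpressed, was touched by 1 shRNA7 peak that was not hairpin-gained, and peak lists do not measure its transcript or protein. For OPA1, a mitochondrial fusion protein, this was a promoter-proximal peak (chr3:193310416-193312004) with 88 tags in shRNA7, 87 in shRNA5 and 23 in Doxy0.0. KIFAP3 and CTNNBL1 had 1 hairpin-gained peak each that was not a member. ITPR1 had 1 shRNA7 peak, which was not hairpin-gained, and EFNA2 and IFT80 had none. The study gives OPA1 and EFNA2 as examples where elongation rates changed little with depletion or overexpression. It proposes that regions of ITPR1 and IFT80 are more sensitive to the level of RECQL5.

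The balance of members and mirror peaks differed between chromosomes. Members made up from 10.3% of hairpin-gained peaks on chromosome 10 (8.14 to 12.9) to 19.3% on chromosome 17 (16.6 to 22.2), leaving out the 6 peaks on chromosome Y. Chromosome 10 had 65 members and 65 mirror peaks, whereas chromosome 3 had 93 and 22 (a ratio of 4.23) and chromosome 19 had 93 and 22 as well. On chromosome 16 the ratio was 3.14. The lengths of the whole doxycycline lists varied too, and the Doxy0.0 list was 1.15 times as long as the Doxy1.0 list on chromosome 10, 1.70 times on chromosome 3 and 2.01 times on chromosome 16. Not every chromosome followed, since this ratio was only 1.46 on chromosome 19, and 1.32 on chromosome 13, where there were 3.57 members per mirror peak. Over 23 chromosomes the 2 ratios were correlated (Pearson's r of the log2 ratios 0.76, Spearman's rho 0.82), as a description, for the points share the same libraries and members are part of the lists. The ratio of Doxy0.0-only to Doxy1.0-only peaks among shRNA7 peaks with neither an shRNA5 nor an shCTRL peak varied alike, from 1.16 on chromosome 10 to 4.86 on chromosome 3 (r 0.76, rho 0.74).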

How the data were processed

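ChIP-seq for RNAPII (antibody 4H8) was carried out by the authors in 5 libraries, 1 per group, with 4 IgG libraries as background. Per the labels and methods, reads were processed with CASAVA 1.8 and aligned to hg19 (GRCh37) with Bowtie 0.12.7, blacklisted regions were removed, and peaks were called in each library with MACS 1.4.2. The authors deposited peak lists with tag counts per peak, a significance score (−10 × log10 of the p-value), a fold enrichment (a linear ratio to the local background) and a false discovery rate in percent. No value is normalised between libraries, and the number of reads per library is not in the lists. According to the methods it was similar within each arm and higher in the hairpin arm.

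Overlaps of at least 1 bp, distances, places (GENCODE annotation lifted to GRCh37) and base composition were computed here with Python 3.11.15, numpy 2.4.6, pandas 2.3.3, scipy 1.17.1 and pysam 0.24.0, and the scripts were tested on simulated data. Of several overlapping peaks of a list, the one with the highest score was taken as the counterpart. Shares carry 95% Wilson intervals and medians 95% order-statistic intervals. For a ratio of counts, the limits of the 95% Wilson interval of the share were converted to a ratio. All these intervals cover counting error only and treat peaks as independent, and no p-value was computed because each group was 1 library. No group can therefore be compared within batches. Absence of a peak depends on list length and threshold, so stricter and equal-length lists were tried. The members and the gene lists were chosen with earlier results of these data known. Named were the 5 strongest members of each place, the 5 genes with most members (ties broken by the shorter gene) and the peaks nearest to the limit of the rule. The strongest listed genes, RECQL5 and the genes that the study's main text names for elongation were named too. Some named items are not reported here. The IgG libraries were not analysed on their own here.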

Additional observations from a re-analysis of the deposited data

How the results depend on the processing

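No paired analysis was possible because a single library stood for every group, and no replicate could be left out either. The number of members, 1877 as reported, was 851 with scores of at least 100 in all lists, 259 with fold enrichments of at least 10, 228 when a score of at least 100 was asked of presence only, 90 with lists of equal length within each arm, and 4978 Doxy0.0 peaks when the rule was anchored on that list. The ratio of members to mirror peaks, 2.0, was 19.9 at a fold enrichment of at least 10 (13 mirror peaks), 2.19 with the score for presence only, 2.31 both with peaks under 1 kb apart merged and without any absent-list peak within 1 kb, and 1.05 with doxycycline lists of equal length (chosen after seeing the data). With equal lengths within each arm the ratio fell to 0.947, with an interval (0.711 to 1.26) that held 1. The promoter-proximal share, 29.3%, was 56.3%, 58.3%, 45.2%, 34.8%, 20% and 34.7% with the score in all lists, the fold, the score for presence, merging, equal lengths in each arm and equal doxycycline lists, 31.8% with a TSS window of 1 kb and 48.7% with all annotated transcripts. The AT content, 54.2%, was 48.5%, 51.9%, 49.4%, 53.2%, 55.1% and 52.5% under the first 6 of these settings. The share of gene-body members with a Doxy1.0 peak elsewhere in the gene, 89.5%, was 82.6% with the score in all lists, 70.0% with the fold, 85.7% with merging, 79.5% with equal lengths in each arm and 87.2% without absent-list peaks within 1 kb. A false discovery rate of at most 5%, overlap of at least 50% of the shorter peak, and chromosomes 1 to 22 and X moved none of these 5 values beyond its interval (for the number of members, beyond 1.5 times). Members had a higher promoter-proximal share (by 10.5 to 37.5 percentage points) and a lower AT content (differences of -11.0 to -4.88 points) than mirror peaks in all 12 alternatives computed for each. All of these alternatives drew on the same single libraries and are not independent of one another. The cause of these changes was not tested, beyond the fewer peaks that a shorter list holds by construction. With single libraries and no tags listed outside called peaks, a lost peak and a peak that just missed the threshold cannot be told apart.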
